A study of Homo sapiens with 6 samples.

Results

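The genes described here encode the machinery that licenses replication origins and copies DNA at the fork. They are a fixed list of 45 genes, found by symbol among the 53719 rows of the count table, and each of the 45 had a row. They were followed in H9 cells, an established line of human embryonic stem cells, grown in RSeT, a commercial medium for naive-type culture. Transfection was with a control gapmer (3 libraries, letters a, b and c) or with one that targets ALR (alpha satellite RNA), transcribed from the human centromeric repeats (3 libraries, titled Sense3 a, b and c and called knockdown here). RNA was taken 48 h later from both groups, which differ by label only in the gapmer. A gapmer is an antisense oligonucleotide that directs RNase H to the RNA it pairs with. Values of single libraries are given in the order a, b, c. All 6 libraries come from the same line and the labels do not say whether they are separate cultures, so p-values measure the spread between these libraries. In bulk RNA, fewer cells in a phase of the cycle and less RNA per cell cannot be told apart.

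Total counts ran from 25087629 to 36576752 per library. Knockdown library a had counts in 29678 rows and the other 5 libraries in 25898 to 26788, and on the first principal component of all genes tested (36.2% of the variance) it lay at -53.4 against 4.82 to 15.4. On the second component (21.6%) knockdown library b was set apart, at -35.4 against -7.88 to 18.2. Of 8 pluripotency markers, 7 had counts in every library, with a summed level of 3905 to 4295 CPM (counts scaled to a common library total) in knockdown and 3816 to 3880 in the controls. The pluripotency marker SOX2 was listed at 0 in all 6 libraries. Of the naive markers, KLF17 was the lowest, at 0.0273 to 0.362 CPM. DPPA3 lay at 17.8 to 22.5, KLF4 at 16.4 to 19.1 and TFCP2L1 at 23.6 to 31.8 CPM. The rest were lower, with KLF5 at 4.82 to 5.96, SUSD2 at 2.328 to 3.115, DNMT3L at 1.335 to 2.948 and DPPA5 at 0.798 to 1.27 CPM. The summed level of 8 naive markers was 73.0 to 80.4 CPM in knockdown and 71.7 to 77.6 in the controls, and that of 8 primed markers (7 with a row) was 356 to 392 and 338 to 365. Markers of other cells summed to 89.0 to 96.7 and 90.4 to 103 CPM for fibroblasts (8 genes, mostly COL1A1 and COL1A2, with LUM at 0 to 0.0399 and DCN at 0.0399 to 0.398), and to 2.59 to 3.4 and 2.27 to 2.81 for trophectoderm and amnion (8 genes, CDX2 at 0 to 0.109). The sums were 2.17 to 3.77 and 1.91 to 2.58 for endoderm (6 genes, FOXA2 at 0.7605 to 1.555 and SOX17 at 0 to 0.145). For mesoderm (6 genes, 5 with a row, mostly MIXL1 at 9.87 to 13.95) they were 14.3 to 15.9 and 11.4 to 13.7. For neuroectoderm (6 genes, mostly TUBB3, with DCX at 39.02 to 44.3 and PAX6 at 1.5 to 2.63) they were 243 to 274 and 256 to 277. In each of these 8 lists, 0 of the 2 to 7 genes tested passed an adjusted p of 0.05 in edgeR. Their part in the results below was not tested.

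DNA replication begins where the origin recognition complex (ORC) binds. CDC6 and CDT1 load the MCM2-7 helicase there, and geminin (GMNN) holds CDT1 back once an origin has been used. CDC45 and the GINS complex join MCM2-7 to form the working helicase. Polymerase alpha with primase lays down primers, polymerases delta and epsilon extend them on the clamp PCNA, and FEN1 and LIG1 join the lagging-strand fragments. Many of these genes are transcribed before and during S phase under E2F transcription factors, and embryonic stem cells, with their short G1 phase, express them at a high level.

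Because E2F sites are a textbook feature of this group, promoters were searched for the letters TTTCCCGC and TTTGGCGC (E2F) and CCAAT (the box bound by NF-Y), on both strands. The window was 250 bases before to 50 bases after the gene's start in RefSeq (GRCh38.p14), and 39 of the 45 genes had an entry. MCM4, MCM5, GINS4, POLD3, RPA2 and RPA3 had none. An E2F match was found in 17 of the 39 promoters (43.6%), against 3.4% of 11136 promoters of genes tested and 2.27% of all 35116 in the table. CCAAT was found in 23 of the 39 (59.0%), against 36.0% and 34.6%. In 0 of the 39 did an E2F match overlap a CCAAT match. The promoters below belong to POLD1, the gene that passed the test, to GINS2, the next in size of difference, and to the helicase genes with an entry. They run 5′ to 3′ on the gene's strand, with E2F and CCAAT matches on either strand in capitals.

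POLD1 (chr19:50384073-50384372, plus strand): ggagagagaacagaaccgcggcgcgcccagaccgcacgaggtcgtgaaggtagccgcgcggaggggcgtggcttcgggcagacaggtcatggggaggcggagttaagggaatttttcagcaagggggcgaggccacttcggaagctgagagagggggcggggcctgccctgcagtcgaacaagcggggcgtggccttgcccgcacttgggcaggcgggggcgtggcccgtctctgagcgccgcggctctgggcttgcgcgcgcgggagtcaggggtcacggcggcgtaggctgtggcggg
GINS2 (chr16:85688905-85689204, minus strand): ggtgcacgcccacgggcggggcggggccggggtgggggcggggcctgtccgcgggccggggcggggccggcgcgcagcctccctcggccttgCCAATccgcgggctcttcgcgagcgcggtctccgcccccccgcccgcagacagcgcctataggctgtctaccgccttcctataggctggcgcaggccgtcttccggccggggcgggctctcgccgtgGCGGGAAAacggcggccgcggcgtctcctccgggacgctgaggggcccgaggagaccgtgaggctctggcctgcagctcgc
MCM2 (chr3:127598161-127598460, plus strand): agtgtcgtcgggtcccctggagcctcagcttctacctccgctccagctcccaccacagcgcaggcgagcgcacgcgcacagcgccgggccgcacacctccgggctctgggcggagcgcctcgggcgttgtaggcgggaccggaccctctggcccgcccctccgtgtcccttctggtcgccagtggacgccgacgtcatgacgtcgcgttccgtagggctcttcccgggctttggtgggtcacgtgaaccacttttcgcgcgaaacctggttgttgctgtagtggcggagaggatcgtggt
MCM3 (chr6:52284693-52284992, minus strand): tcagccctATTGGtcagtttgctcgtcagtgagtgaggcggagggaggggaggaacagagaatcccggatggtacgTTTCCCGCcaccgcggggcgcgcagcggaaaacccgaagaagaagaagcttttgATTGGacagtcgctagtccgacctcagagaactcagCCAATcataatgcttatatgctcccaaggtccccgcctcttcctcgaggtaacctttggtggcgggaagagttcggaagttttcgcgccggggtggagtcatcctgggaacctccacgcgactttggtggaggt
MCM6 (chr2:135876394-135876693, minus strand): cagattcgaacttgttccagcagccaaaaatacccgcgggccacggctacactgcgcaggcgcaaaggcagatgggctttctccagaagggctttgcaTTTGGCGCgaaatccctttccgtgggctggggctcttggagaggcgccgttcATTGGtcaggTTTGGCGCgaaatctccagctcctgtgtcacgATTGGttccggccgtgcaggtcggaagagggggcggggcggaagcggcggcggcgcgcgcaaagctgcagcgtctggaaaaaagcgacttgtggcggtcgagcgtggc
MCM7 (chr7:100101348-100101647, minus strand): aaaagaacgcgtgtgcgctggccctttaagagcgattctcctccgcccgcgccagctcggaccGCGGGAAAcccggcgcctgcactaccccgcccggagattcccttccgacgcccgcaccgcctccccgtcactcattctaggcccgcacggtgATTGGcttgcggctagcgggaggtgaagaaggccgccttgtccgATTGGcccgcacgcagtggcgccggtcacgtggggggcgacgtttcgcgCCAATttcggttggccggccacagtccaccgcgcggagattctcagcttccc

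POLD1 and MCM2 held no match to the searched letters in this window. For E2F only TTTCCCGC and TTTGGCGC were searched, so a promoter without a match may hold another form of the site. GINS2, MCM3 and MCM7 held 1 E2F match each and MCM6 held 2, and GINS2, MCM3, MCM6 and MCM7 held 1, 3, 2 and 3 CCAAT matches. The match started 31 bases before the start in GINS2, 174 before in MCM3, and 187 before in MCM7, and at 152 and 90 before in MCM6. The 17 members with an E2F match had a median log2 fold change (knockdown over control) of 0.08, and 12 of them were above 0. The 21 tested members whose promoter had no match to the E2F letters searched had a median of 0.02, with 12 above 0. Both sets spanned nearly the same range, -0.21 to 0.35 and -0.28 to 0.37. For CCAAT, the 23 members with a match had a median of 0.06, with 17 above 0. The 15 tested members whose promoter lacked CCAAT had a median of -0.01, with 7 above 0.

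In edgeR's quasi-likelihood fit over all 19721 genes tested, 44 of the 45 members had enough counts, and 1 of them passed a Benjamini-Hochberg adjusted p of 0.05. That is 2.27% of the members tested, against 0.786% of all genes tested. The gene was POLD1, which was 29.2% higher in knockdown libraries. At an unadjusted p under 0.05, 8 members were higher (18.2%, against 6.68% of all genes tested) and 1 was lower (2.27%, against 7.57%). The 8 were POLD1, GINS2, MCM2, LIG1, RFC2, MCM3, MCM7 and RPA1, and the lower one was PRIM2. The 3 knockdown values lay wholly above the 3 control values in 10 members (22.7%, against 9.55% of all genes tested) and wholly below in 2, ORC4 and RFC3 (against 9.37%). The median log2 fold change was 0.05 over the 44 members and 0.02 over all genes tested, and 29 of the 44 were above 0 (65.9%, against 54.4%). Differences were small throughout: the range was -0.28 to 0.37 on the log2 scale. These counts moved with single libraries: without knockdown library b the members higher at an unadjusted p under 0.05 numbered 3 and the median was 0.02 (5.74% of all genes were higher in that fit). Without knockdown library c 14 members were higher and 6 lower, where 7.39% and 11.9% of all genes were. Without control library c there were 3 higher and 0 lower, against 4.21% and 4.3% of all genes. The scaling moved them too: with library size alone 15 were higher and 0 lower, against 9.57% and 5.5% of all genes, and with upper-quartile scaling 12 and 0, against 8.5% and 6.19%.

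**Figure D1:**
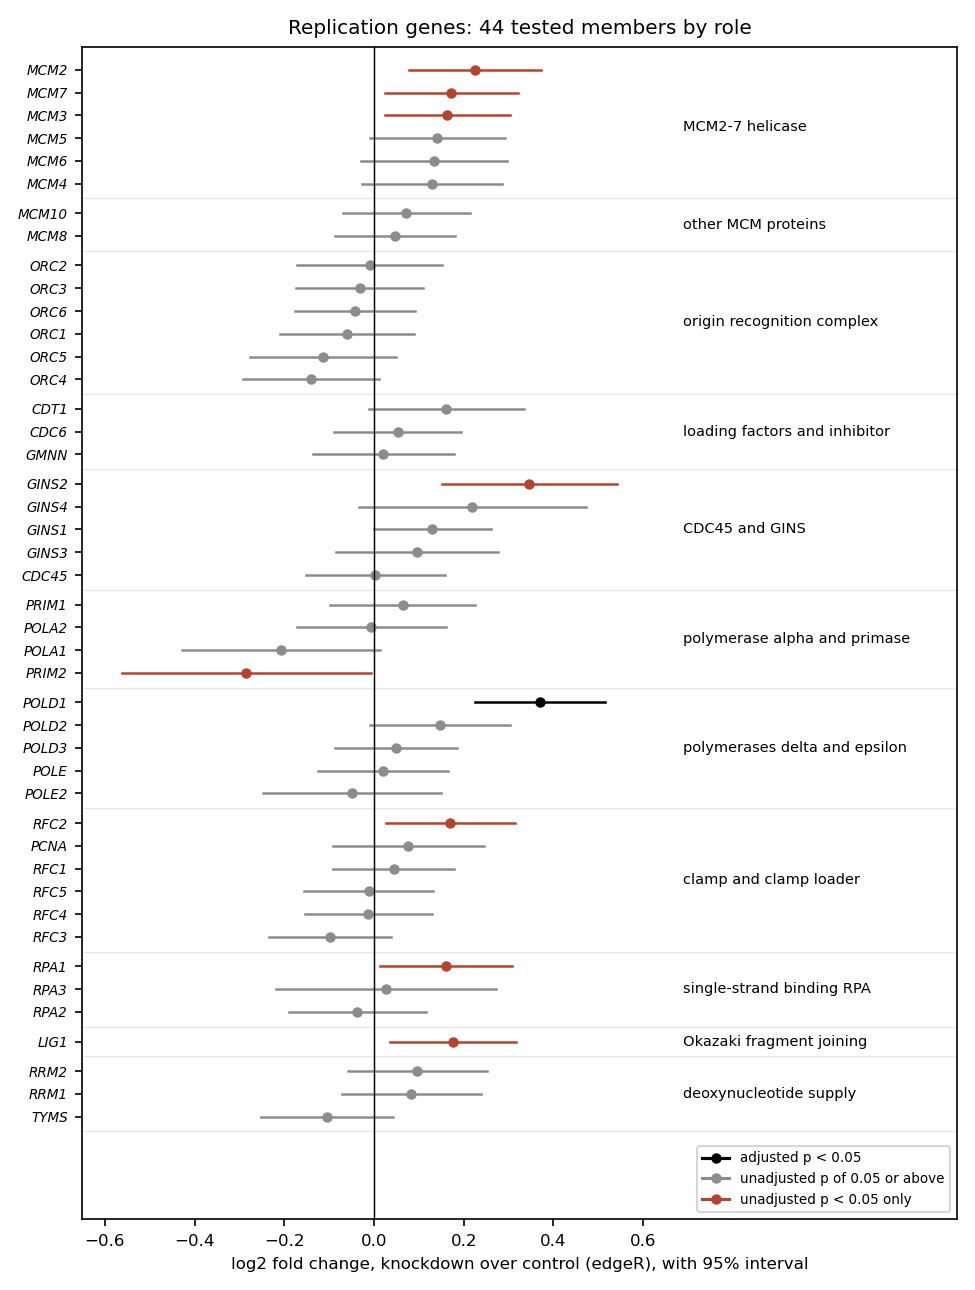
Log2 fold change of the 44 tested members (x axis, knockdown over control, edgeR) with 95% intervals, grouped by role (y axis); black marks the gene past an adjusted p of 0.05, red those past an unadjusted p of 0.05 only, grey the rest. POLD1, at 0.37, is the black point, the 6 MCM2-7 subunits lie at 0.13 to 0.23, and the 6 ORC subunits lie between -0.14 and -0.01.

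Summed over the 45 genes on the same TMM scale as the single genes, the members held 5407, 5611 and 5518 CPM in knockdown and 5327, 5376 and 5355 CPM in the controls. The groups did not overlap, but knockdown library a lay close to the controls (5512 ± 102 against 5353 ± 24.5; SD, n = 3). The gap between the means was 159 CPM, and 258.4 CPM when the sums were scaled to total counts, a comparison added after seeing the data. On that scale the knockdown libraries held 5555, 5557 and 5558 CPM, so their closeness there depends on the scaling. MCM2-7 made up the largest part, with 1694, 1844 and 1652 CPM (TMM) in knockdown and 1540.4, 1585 and 1526 in the controls. Knockdown library b held the highest sum and the highest value of 21 of the 44 tested members (47.7%, against 24.2% of all genes tested), knockdown library a that of 6 members and knockdown library c that of 4. The other 13 peaked in a control library.

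Polymerase delta synthesises most of the lagging strand, and POLD1 is its catalytic subunit. POLD1 (ENSG00000062822.13, protein-coding, chromosome 19, 50384204 to 50418016 on the plus strand in GENCODE 29, GRCh38) had 78.4, 86.3 and 86.3 CPM in knockdown. It had 67.1, 63.0 and 64.3 CPM in the controls. Every knockdown library was above every control library, and the gap between the groups was wider than the spread within either. POLD1 rose by 0.37 ± 0.07 on the log2 scale (SE; edgeR adjusted p = 0.0250), from 64.8 ± 2.08 to 83.7 ± 4.55 CPM (SD, n = 3). The log2 fold change was 0.33 to 0.41 when each library was left out, but the call was lost in 4 of those 6 fits: the edgeR adjusted p was 0.114 without knockdown library b, and 0.103, 0.192 and 0.189 without control library a, b or c. Over all 15 alternatives the call held in 11, with adjusted p-values of 0.000216 to 0.192. In GENCODE 29, 8.64% of POLD1's exon bases also belong to AC020909.1 on the same strand, so some of its reads could be assigned to that gene.

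**Figure D2:**
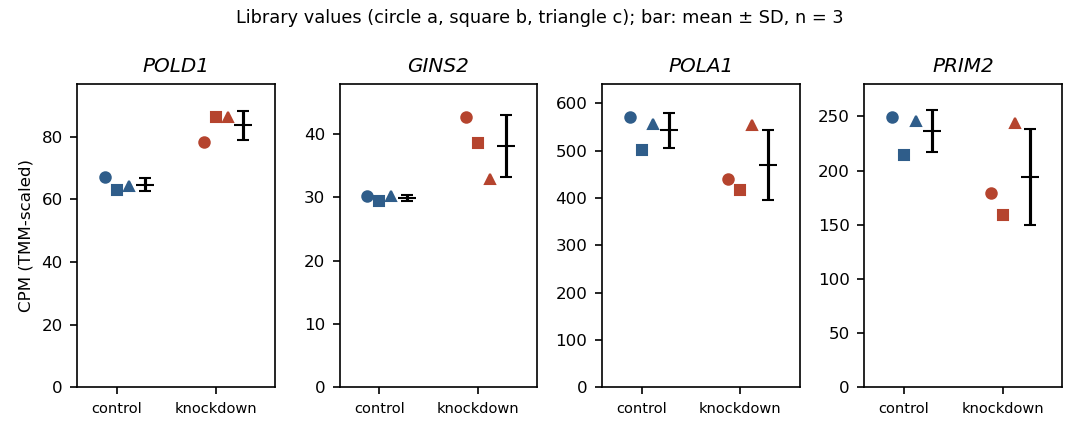
CPM (TMM-scaled, y axis from 0) of POLD1, GINS2, POLA1 and PRIM2 in each control and knockdown library (circle a, square b, triangle c), with the mean ± SD of 3 libraries beside them. POLD1 and GINS2 do not overlap between groups; knockdown library c lies among the controls for POLA1 and PRIM2.

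The other subunits of the elongating polymerases did not pass the test. POLD2, the accessory subunit that binds POLD1, had a log2 fold change of 0.15 (95% interval -0.01 to 0.30), and POLD3, another delta subunit, 0.05 (-0.09 to 0.19). POLE, the catalytic subunit of the leading-strand polymerase epsilon, stood at 0.02 (-0.12 to 0.16) and POLE2 at -0.05 (-0.25 to 0.15). Whether POLD1 differs from its partner subunits was not tested.

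The MCM2-7 helicase is a ring of 6 related ATPases that unwinds the template. All 6 subunits had log2 fold changes above 0, from 0.13 to 0.23 with a median of 0.15, and 0 of the 6 passed an adjusted p of 0.05. At an unadjusted p under 0.05, 3 of the 6 were higher, against 6.68% of all genes tested. That count was 1 without knockdown library b, control library b or control library c (5.74%, 3.92% and 4.21% of all genes) and 1 with the length trend taken out (5.71%). It was 6 without knockdown library c (7.39%) and 6 with library size alone (9.57%). All 6 stayed above 0 in each of the 15 alternatives, the other scalings and the fits that left out a library included. The median was 0.10 without knockdown library b, 0.10 once the trend on gene length was taken out, and 0.15 to 0.17 in the remaining 5 leave-one-out fits. MCM2 (chromosome 3, 127598223 to 127622436) had 196, 224 and 204 CPM in knockdown and 178, 179 and 177 in the controls. No knockdown value reached down to the controls (log2 fold change 0.23 ± 0.07, SE; edgeR adjusted p = 0.159). Of its exon bases, 23.6% are shared with genes on the opposite strand, among them TPRA1. MCM3 had 350.3, 375 and 342 CPM in knockdown and 316, 322 and 315 in the controls (log2 fold change 0.16 ± 0.06; edgeR adjusted p = 0.277). MCM7, whose introns host a microRNA cluster, had 316, 352 and 323 CPM in knockdown and 306, 284 and 290.02 in the controls (log2 fold change 0.17 ± 0.07; edgeR adjusted p = 0.28). Both genes were separate between groups, by small margins next to the spread among the knockdown libraries. MCM4, MCM5 and MCM6 had log2 fold changes of 0.13, 0.14 and 0.13, and their groups overlapped. In each of the 6 genes knockdown library b was the highest of the 6 libraries.

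MCM10, which helps to start the fork, had 102, 111 and 102 CPM in knockdown and 101, 104 and 96.1 in the controls, so the groups overlapped (log2 fold change 0.07 ± 0.07; edgeR adjusted p = 0.662). MCM8, a relative of the helicase subunits with a part in repair, had a log2 fold change of 0.05 (95% interval -0.09 to 0.18).

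ORC marks origins and is the platform for helicase loading. Its 6 subunits all had log2 fold changes below 0, from -0.14 to -0.01 with a median of -0.05, and 0 of the 6 passed an adjusted p or an unadjusted p of 0.05. This side depended on the scaling and on single libraries for ORC2. ORC2 lay at 0.02 with library size alone, at 0.01 with upper-quartile scaling and at up to 0.04 with a library left out. Across the 15 alternatives ORC1, ORC4, ORC5 and ORC6 stayed below 0 in all 15, ORC3 in 14 and ORC2 in 11. ORC4 was the subunit with the smallest p. It had 89.7, 85.0 and 99.4 CPM in knockdown and 101, 99.9 and 101 in the controls. Its highest knockdown value, in library c, lay just under the lowest control. The log2 fold change was -0.14 ± 0.07 (SE; edgeR adjusted p = 0.391), and without knockdown library c ORC4 passed (-0.22; edgeR adjusted p = 0.04605). In that fit 1309 of 20456 genes passed, against 155 of 19721 with all libraries. ORC5, with 55.4, 55.6 and 63.2 CPM in knockdown and 59.7, 66.6 and 61.9 in the controls, had a log2 fold change of -0.11 (95% interval -0.28 to 0.05). ORC1, the subunit whose protein is removed after S phase begins, stood at -0.06, ORC6 at -0.04, ORC3 at -0.03 and ORC2 at -0.01.

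**Figure D3:**
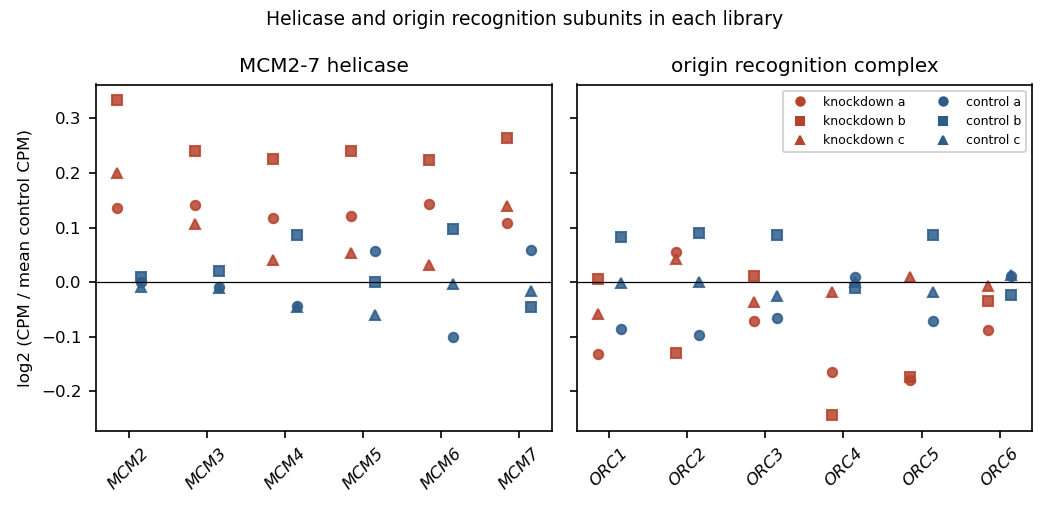
Log2 ratio of each library's CPM to the control mean (y axis) for the 6 MCM2-7 subunits (left) and the 6 ORC subunits (right); red is knockdown, blue is control, and circle, square and triangle are libraries a, b and c. Knockdown library b is the top point for each helicase subunit, whereas for ORC the groups overlap in each subunit except ORC4.

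The loading step showed no member past the test. CDT1, the loader, had 60.7, 73.5 and 67.03 CPM in knockdown and 63.5, 58.1 and 58.4 in the controls, with knockdown library a inside the control range (log2 fold change 0.16 ± 0.08; edgeR adjusted p = 0.379). CDT1 stood at 0.08 without knockdown library b and at 0.09 with the length trend taken out. GMNN, its inhibitor, had 69.8, 71.2 and 60.8 CPM against 65.3, 67.5 and 66.1, so that knockdown library c was the lowest and library b the highest of the 6 (0.02 ± 0.07; edgeR adjusted p = 0.925). CDC6 stood at 0.05 (95% interval -0.09 to 0.19). The log2 ratio of CDT1 to GMNN counts within a library, which needs no scaling, was -0.20, 0.04 and 0.14 in knockdown and -0.04, -0.22 and -0.18 in the controls. The difference of means was 0.14, between 0.0674 without knockdown library c and 0.238 without knockdown library a, and the groups overlapped (exact permutation p = 0.30, two-sided; 0.60 adjusted over the 2 ratios compared; the smallest p this design allows is 0.10).

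GINS is a ring of 4 small proteins that ties CDC45 to the helicase. Among its genes GINS2 (ENSG00000131153.8, chromosome 16, 85676198 to 85690073, minus strand) had the largest difference, with 42.7, 38.5 and 32.9 CPM in knockdown. The controls were close together at 30.1, 29.4 and 30.3 CPM. The groups did not overlap, but knockdown library c was much nearer to the controls than library a. The log2 fold change was 0.35 ± 0.09 (SE; edgeR adjusted p = 0.107), and GINS2 passed in 3 of the 15 alternatives: DESeq2 (adjusted p = 0.0441), edgeR with no low-count filter (0.00426) and edgeR without knockdown library c (0.00866). Over all genes 501, 1064 and 1309 passed in those 3 fits, against 155 in the main fit. GINS1 had 132, 132 and 126.5 CPM in knockdown and 116, 119 and 121 in the controls, with no overlap (0.13 ± 0.06; edgeR adjusted p = 0.352). GINS4, the lowest expressed tested member per kb of exon, was also separate between groups, at 7.54, 8.6 and 7.79 against 7.04, 6.67 and 6.88 CPM (log2 fold change 0.22, 95% interval -0.03 to 0.47). GINS3 stood at 0.10 (-0.09 to 0.28), with overlapping groups. CDC45 had 48.6, 53.4 and 56.9 CPM in knockdown and 52.4, 52.8 and 53.2 in the controls, a log2 fold change of 0.00 (-0.15 to 0.16) whose sign varied over the alternatives.

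Polymerase alpha and primase form the complex that starts each new strand. PRIM2, the large primase subunit, and POLA1, the catalytic subunit, had the lowest log2 fold changes of the 44 members, and POLA1's library values are given because of that rank, after they had been seen. PRIM2 (chromosome 6, 57314805 to 57646849) had 180, 159 and 244 CPM in knockdown and 249.6, 214 and 245 in the controls. Knockdown libraries a and b were below every control, whereas library c lay among them. The log2 fold change was -0.28 ± 0.13 (SE; edgeR adjusted p = 0.339). POLA1 (chromosome X, 24693919 to 24996986) had 440, 416 and 555 CPM in knockdown and 571, 500.3 and 557 in the controls (log2 fold change -0.21 ± 0.10; edgeR adjusted p = 0.379). The order of the libraries was the same as for PRIM2. Without knockdown library c both genes passed, PRIM2 at -0.50 (edgeR adjusted p = 0.00421) and POLA1 at -0.36 (edgeR adjusted p = 0.0086). In that fit 1309 of 20456 genes passed, 1112 of them lower, against 155 of 19721 with all libraries. PRIM2 also passed with no low-count filter (edgeR adjusted p = 0.0131), where 1064 of 32300 genes passed. It stood at -0.16 without knockdown library b. Their partner subunits lay near 0: PRIM1 stood at 0.06 (95% interval -0.10 to 0.23) and POLA2 at -0.01 (-0.17 to 0.16). The difference between subunits was not tested. PRIM1 shares 16.2% of its exon bases with other genes on its own strand and POLA2 35.1%.

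PRIM2 and POLA1 span 332045 and 303068 bases and are the longest of the 44 genes. The 5 tested members over 100 kb had a median log2 fold change of -0.10, the 25 of 20 to 100 kb a median of 0.05, and the 14 under 20 kb a median of 0.09. Over all genes with a span in GENCODE 29, the medians of the same 3 classes were -0.04 (3486 genes), 0.01 (6885) and 0.06 (5638). Across the 44 members, log10 span and log2 fold change had a Pearson r of -0.50, and of -0.32 without PRIM2 and POLA1; this is a description across genes that share the same 6 libraries. With the dependence of expression on gene length fitted and taken out of each library, PRIM2 stood at -0.23, POLA1 at -0.16 and POLD1 at 0.33 (edgeR adjusted p = 0.0478). In that fit 3 members were higher and 0 lower at an unadjusted p under 0.05, against 5.71% and 8.43% of all genes. The median there was 0.02 over the 44 and -0.01 over all genes. The part of gene length in the results was not tested beyond these values.

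**Figure D4:**
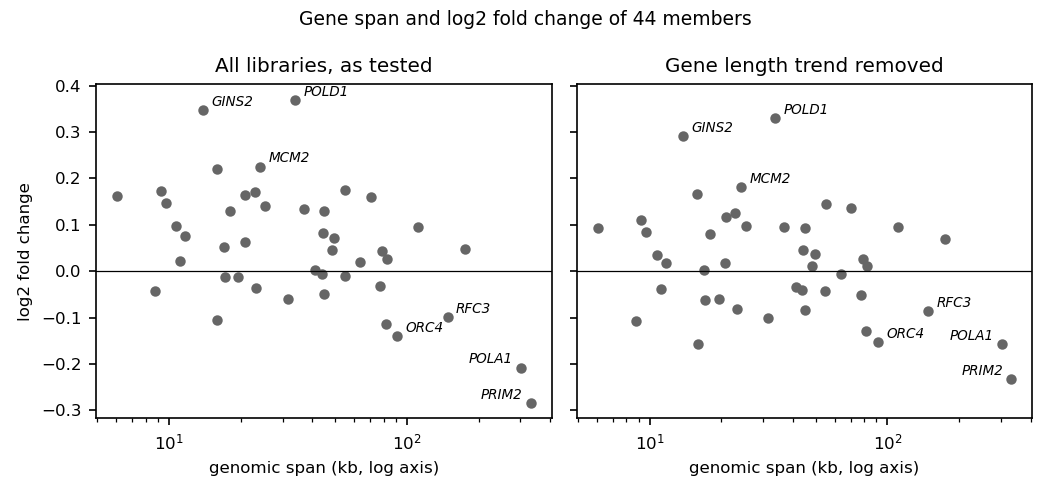
Genomic span in kb (x axis, log scale) against log2 fold change (y axis) for the 44 tested members, as tested (left) and with the length trend taken out (right). PRIM2 and POLA1 are the points at the lower right of both panels; POLD1 stays the highest, at 0.37 and 0.33.

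PCNA is the sliding clamp and RFC1 to RFC5 form the loader that opens it. PCNA had 163, 166 and 140 CPM in knockdown and 143, 157 and 145 in the controls, so that knockdown library c was the lowest of the 6 (log2 fold change 0.08 ± 0.08; edgeR adjusted p = 0.704). RFC2 had 58.4, 61.7 and 58.4 CPM against 54.6, 54.0 and 50.2, with no overlap (0.17 ± 0.07; edgeR adjusted p = 0.273). RFC3, named after its values were seen, was the only loader subunit with the groups separate in the other direction, at 173, 171 and 183 CPM in knockdown and 186, 184 and 194 in the controls (log2 fold change -0.10, 95% interval -0.23 to 0.04). RFC1, RFC4 and RFC5 stood at 0.04, -0.01 and -0.01. The loader subunits thus lay on both sides of 0, with a median of 0.02 over the 6 genes of clamp and loader.

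RPA coats the exposed single strand. RPA1, its largest subunit, had 161, 161 and 145 CPM in knockdown and 139, 144 and 134 in the controls; knockdown library c was above control library b by less than 1 CPM (log2 fold change 0.16 ± 0.07; edgeR adjusted p = 0.309). RPA2 stood at -0.04 and RPA3 at 0.03, with groups that overlapped. LIG1, the ligase that seals the lagging-strand fragments, had 66.8, 72.7 and 71.3 CPM in knockdown and 63.4, 62.9 and 60.5 in the controls. The groups did not overlap (log2 fold change 0.18 ± 0.06; edgeR adjusted p = 0.245).

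FEN1, the flap nuclease that trims those fragments, could not be described. Its row held 4, 6 and 2 counts in knockdown and 1, 0 and 3 in the controls, whereas every other member had at least 197 counts in every library. Counts this low, from 0 to 6, did not pass the filter for testing, so no fold is given. Of FEN1's exon bases in GENCODE 29, 8.68% are shared with other genes. The annotation and counting rules behind the table are not given in the sources used here, and a low row says only that few reads were assigned to it.

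Deoxynucleotides for the fork come from ribonucleotide reductase (RRM1 and RRM2) and thymidylate synthase (TYMS). RRM1 had 130.1, 133 and 116 CPM in knockdown and 113, 125 and 120.4 in the controls (log2 fold change 0.08 ± 0.07; edgeR adjusted p = 0.644). RRM2, the subunit made in S phase, had 209, 209 and 180.3 CPM against 183, 188 and 187 (0.10 ± 0.07; edgeR adjusted p = 0.575). For both genes knockdown library c was lower than knockdown libraries a and b, and the groups overlapped. The log2 ratio of RRM2 to RRM1 counts was 0.68, 0.65 and 0.63 in knockdown and 0.70, 0.59 and 0.64 in the controls, a difference of 0.01 (exact permutation p = 0.90, two-sided; 0.90 adjusted over the 2 ratios). TYMS had 59.6, 63.6 and 66.4 CPM in knockdown and 64.9, 70.02 and 68.9 in the controls (log2 fold change -0.11 ± 0.07; edgeR adjusted p = 0.518). Of its exon bases 46.6% are shared with genes on the opposite strand, ENOSF1 and TYMSOS, so its counts are uncertain if strand was not used. RRM2 shares 20.2% with AC007240.1 on its own strand.

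Level differed far more between members than between groups. Per kb of annotated exon, control libraries averaged 101 CPM for PCNA, 87.0 for MCM3 and 85.7 for POLA1, the 3 highest, and 1.25 for GINS4, 4.27 for GINS3 and 5.44 for RPA3, the 3 lowest. Within the helicase the range was 22.5 (MCM5) to 87.0 (MCM3), and within ORC it was 11.3 (ORC4) to 37.8 (ORC1). These lengths are unions of all annotated exons and so understate genes with rare long transcripts.

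With each library left out in turn, the median of MCM2-7 stayed between 0.10 and 0.17 and that of CDC45 and GINS between 0.11 and 0.15. The median of ORC stayed between -0.08 and -0.04. That of polymerase alpha and primase ran from -0.22, without knockdown library c, to -0.05, without knockdown library a.

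**Figure D5:**
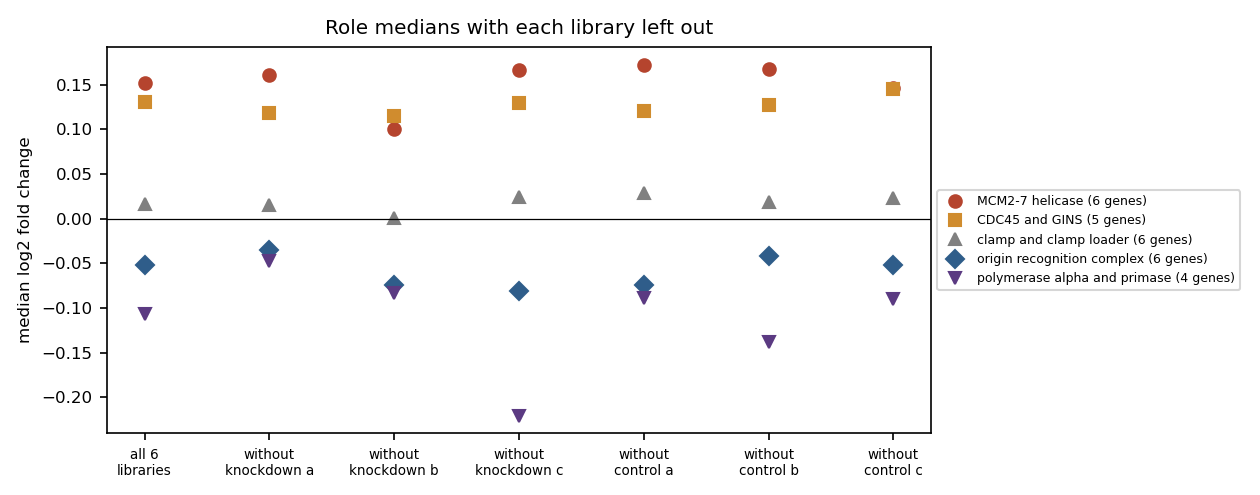
Median log2 fold change (y axis) of 5 role groups with all 6 libraries and with each library left out (x axis). MCM2-7 and CDC45 with GINS stay above 0 and ORC and polymerase alpha with primase below 0 in all 7 fits, and the lowest point, -0.22, is polymerase alpha and primase without knockdown library c.

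A list of 45 other replication genes (firing kinases, checkpoint mediators, chromatin assembly and nucleotide enzymes) gave 41 genes with enough counts. Of these, 0 passed an adjusted p of 0.05 in edgeR, as in DESeq2 and limma-voom. With no low-count filter 1 of 43 passed, where 1064 of all 32300 genes did. Without knockdown library c 2 of 42 passed, where 1309 of all 20456 genes did. At an unadjusted p under 0.05, 2 were higher (4.88%, against 6.68% of all genes tested) and 2 lower (4.88%, against 7.57%), and the median log2 fold change was 0.05. TK1, the thymidine kinase of S phase, had 51.4, 55.8 and 56.9 CPM in knockdown and 46.8, 43.7 and 46.6 in the controls, with no overlap (0.26 ± 0.07; edgeR adjusted p = 0.114). TIMELESS, a fork protection factor, had 117, 127 and 116 CPM against 105, 111 and 99.3 (0.19 ± 0.07; edgeR adjusted p = 0.236). RNASEH2B, a subunit of the RNase H2 that removes RNA from DNA, had 44.9, 44.5 and 44.2 CPM against 51.9, 48.9 and 53.4, with knockdown below control in all 3 libraries (-0.21 ± 0.07; edgeR adjusted p = 0.183). The other gene past an unadjusted p of 0.05, named after its values were seen, was MCM9, a partner of MCM8, at -0.22 ± 0.08 (edgeR adjusted p = 0.236). The 4 not tested were POLD4, with 3 to 15 counts per library, DCTPP1, with 2 to 6, and ASF1A and RNASEH2A, both listed at 0 throughout.

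Of 20 genes of G2 and mitosis, 0 passed an adjusted p of 0.05 in edgeR, DESeq2 or limma-voom. In edgeR 2 were higher (10%, against 6.68% of all genes tested) and 0 lower (against 7.57%) at an unadjusted p under 0.05, the median was 0.05, and 16 of the 20 were above 0 (80%, against 54.4% of all genes tested). Without knockdown library b, or with the length trend taken out, 11 of the 20 were above 0. CDC20, the activator of the anaphase ligase, had 111, 124 and 109 CPM in knockdown and 103, 102 and 92.02 in the controls (0.21 ± 0.07; edgeR adjusted p = 0.227). UBE2C, a ubiquitin enzyme of the same step, had 56.2, 70.8 and 60.9 against 61.2, 51.95 and 47.6 CPM, with overlap (0.23 ± 0.10; edgeR adjusted p = 0.343). TPX2, a spindle factor, had 219, 221 and 200.5 against 196, 194 and 197 CPM (0.13 ± 0.06; edgeR adjusted p = 0.394). Per-library medians of the 45-gene list and of the mitosis genes were both highest in knockdown library b: their median deviations from the mean of 6 libraries were 0.09 and 0.09 there, 0.02 and 0.03 in knockdown library a, and 0.02 and -0.04 in knockdown library c.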

How the data were processed

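RNA-seq of 6 H9 libraries (3 knockdown, 3 control) was used. The authors deposited raw read counts per gene symbol. The submitters' processing notes name Trimmomatic 0.39, STAR 2.7.8a, featureCounts, Subread 2.14.2 and hg38. The annotation, the strand setting and the handling of reads with several matches are not given in the sources used here, which matters for overlapping genes. The labels' protocols give a directional library kit.

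From the counts, edgeR 4.0.16 (R 4.3.3) was run on all rows kept by filterByExpr (19721 of 53719, holding 99.9% of counts), with TMM scaling, glmQLFit and glmQLFTest, the group as the only term, and two-sided p-values adjusted by Benjamini-Hochberg over all genes tested (threshold 0.05). The biological coefficient of variation, common to all genes, was 0.103. CPM values are TMM-scaled, except marker levels, which use total counts. SE is the absolute log2 fold change divided by the square root of F. Ratios used a pseudocount of 0.5 counts. Gene positions and exon overlaps are from GENCODE 29 (GRCh38), matched by symbol for 45 of 45 genes, and promoters are from RefSeq. The procedure was tested on simulated data. Alternatives are other scalings, DESeq2 1.42.0, limma-voom (limma 3.58.1), other filters, a replicate block, removal of each library's gene length trend (natural spline, 5 degrees of freedom, 81.2% of genes tested) and each library left out.

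The members and lists were chosen with earlier results of these data known, so counts over them support nothing independently. Library values are given for members past the adjusted threshold, the 10 with the smallest unadjusted p, the smallest p in each role, and CDT1, GMNN, RRM1, RRM2, PCNA and MCM2, and for the 3 smallest p of each other list. Library values of ORC5, GINS4, CDC45, POLA1 and RFC3 were added after seeing them.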

Additional observations from a re-analysis of the deposited data

How the results depend on the processing

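POLD1 kept its direction in all 15 alternatives and its call in 11. The count of members past an adjusted p of 0.05, which is 1, was 2 with DESeq2 and 3 with no low-count filter, and 0 to 5 with each library left out. The fit without knockdown library c gave the 5 (POLD1, GINS2, ORC4, POLA1 and PRIM2), and 0 passed without knockdown library b or when any 1 control library was left out. Over all genes the count of 155 became 501 with DESeq2, 1064 with no low-count filter, 393 with the replicate block, 236 with the gene length trend removed and 26 to 1309 with a library left out. The 1309 came from the fit without knockdown library c, as did the 5 members. Members higher at an unadjusted p under 0.05, which numbered 8, were 15 with library size alone and 3 with the length trend removed, and 3 to 14 with a library left out. Over all genes the share higher was 6.68% in the main fit, 9.57% with library size alone and 5.71% with the length trend removed. It was 3.92% to 7.39% with a library left out. Members lower, which numbered 1, were 0 with library size alone, upper-quartile scaling, a mean count of at least 50 or the length trend removed, 2 with limma-voom, no low-count filter or the replicate block, and 0 to 6 with a library left out. Over all genes the share lower was 7.57% in the main fit and 5.3% to 9.33% over those settings. It was 4.3% to 11.9% with a library left out. Members separate between groups, 12 in all, numbered 10 to 27 with a library left out, where 3 against 2 libraries separate more easily: over all genes the share was 18.9% with all libraries and 25.7% to 35.5% with 1 left out, and the 27 and the 35.5% are both without knockdown library c. What causes these shifts was not tested. All genes past the adjusted threshold split 27 higher to 128 lower, 56 to 102 with library size alone and 45 to 112 with upper-quartile scaling.

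The other replication genes at an unadjusted p under 0.05, which numbered 4, were 10 with library size alone, 7 with upper-quartile scaling and 7 with no low-count filter, and 3 to 8 with a library left out. Over all genes 9.57% were higher and 5.5% lower with library size alone. The shares were 8.5% and 6.19% with upper-quartile scaling and 6.64% and 5.3% with no low-count filter. With a library left out they ran from 3.92% to 7.39% higher and from 4.3% to 11.9% lower. The genes of G2 and mitosis, 2 in all and both higher, were 1 with DESeq2 size factors or a mean count of at least 50, 0 with the length trend removed, and 0 to 4 with a library left out. The share of all genes that were higher was 6.4%, 7.83% and 5.71% in those 3 settings. It was 3.92% to 7.39% with a library left out. The median log2 fold change of the members was 0.02 to 0.08 over the alternatives. GMNN changed sign, to -0.0392 with the length trend removed, and ran from -0.0292 to 0.0683 with a library left out. The log2 ratio of RRM2 to RRM1 ran from -0.0135 to 0.0389 with a library left out.

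Deviations of libraries that share a replicate letter had correlations near 0 for letters a and c (1.23e-05 and -0.0251) and a weak positive one for b (0.116). In the fit with the replicate block 393 genes passed, against 155 without it, and 1 member passed, POLD1 (edgeR adjusted p = 0.0197). PRIM2 stood at -0.30 there (edgeR adjusted p = 0.0895). SEs were large for GINS4 (0.12) and RPA3 (0.11), which had low counts, and for PRIM2 (0.13) and POLA1 (0.10), which did not.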
